A study of Mus musculus with 18 samples.

Results

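Maturation of young mouse oocytes in vitro was followed by setting 3 oocytes matured in culture to metaphase II (IVM-MII) against 3 germinal vesicle (GV) oocytes, all from mice aged 6 weeks. They were chosen by their source label and are 6 of the 18 single oocytes of the series. Both groups were C57BL/6 and wild type, per the labels, and neither had been cultured together with MSC, an abbreviation the labels leave unexplained. Each oocyte gave 1 SMART-seq2 library, made from the supernatant left after gentle lysis, when the nucleus had been spun down, per the labels' protocols. Nothing in the labels ties an oocyte to a mouse, a litter or a dish, so each group of 3 oocytes is 1 sample. No test was therefore made. A value after ± is the SD over 3 oocytes and says nothing of the spread between mice.

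A fully grown GV oocyte is arrested in prophase of the first meiotic division, is largely silent in transcription, and holds a large store of maternal mRNA. When meiosis resumes the nuclear envelope breaks down, the first polar body is extruded, and the oocyte halts again at metaphase II until fertilisation. Over this time many stored mRNAs lose their poly(A) tails and are degraded, while others that were kept dormant with short tails are polyadenylated and translated. SMART-seq2 copies RNA from its poly(A) tail, so a longer tail and more transcript cannot be told apart here, nor can a shorter tail and less transcript.

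Counts were scaled to the total of each library and are given as CPM. A difference is the mean log2(CPM + 1) of the IVM-MII oocytes minus that of the GV oocytes, which understates differences of weakly expressed genes. CPM are relative to the whole library, so they do not give the amount per oocyte. A gene is called higher or lower where the difference is at least 1 on this scale, about 2-fold. Values of the 3 oocytes of a group are given in the order of oocytes 1, 2 and 3.

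The 6 libraries held between 3080516 and 4271400 counts. At least 1 count was found for 13046 to 15181 genes in the GV oocytes and for 9036 to 11808 in the IVM-MII oocytes, and the groups were as far apart after thinning every library to 3080516 counts (13037 to 14853 against 8967 to 11532). Oocyte markers were found in both groups, and 15 of 16 were measured well enough to compare. Their summed level was 37402 to 59753 CPM in GV and 19871 to 51924 CPM in IVM-MII oocytes. Of the 15, 8 were lower in IVM-MII oocytes and 1 higher, against 40.4% and 21.5% of all genes compared. Markers of cumulus and granulosa cells, which surround the oocyte in the follicle, summed to 80.2 to 299 CPM in GV and 35.7 to 84.7 CPM in IVM-MII oocytes, and 9 of those 31 markers had no count in any of the 6 libraries. IVM-MII oocyte 1 stood apart from its group. Its correlation with the other 2 IVM-MII oocytes was 0.666 and 0.735 across genes, against 0.82 between those 2, and against 0.819 to 0.923 among GV oocytes. Its sample title carries the prefix Y01, as do those of GV oocytes 1 and 2, while the other 3 carry Y03. The labels do not explain the prefixes.

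Lower levels prevailed at metaphase II. Of 9202 genes with enough counts, 3721 were lower in IVM-MII oocytes (40.4%) and 1975 were higher (21.5%). In 30.1% of the genes every IVM-MII oocyte lay below every GV oocyte, and in 13.1% every IVM-MII oocyte lay above. These shares are the background for the counts of each gene list given below. The 2 directions also differed in reach. On the log2(CPM + 1) scale, a difference equal to 16-fold or more was reached by 673 genes in the lower direction. In the higher direction it was reached by 1 gene, Lin7c. Ldb2 fell just short on that scale, though by the ratio of mean CPM it was 17.4-fold higher and Lin7c 17.2-fold. No count at all was found in IVM-MII oocytes for 67 genes that averaged at least 20 CPM in GV oocytes, and 0 genes did the reverse. The median gene differed by −0.48. With all differences centred on that median, 3043 genes were lower and 2808 higher, so that the lower genes made up 52.0% of the calls instead of 65.3%. The scatter of group means shows the longer tail of genes below the diagonal.

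**Figure D1:**
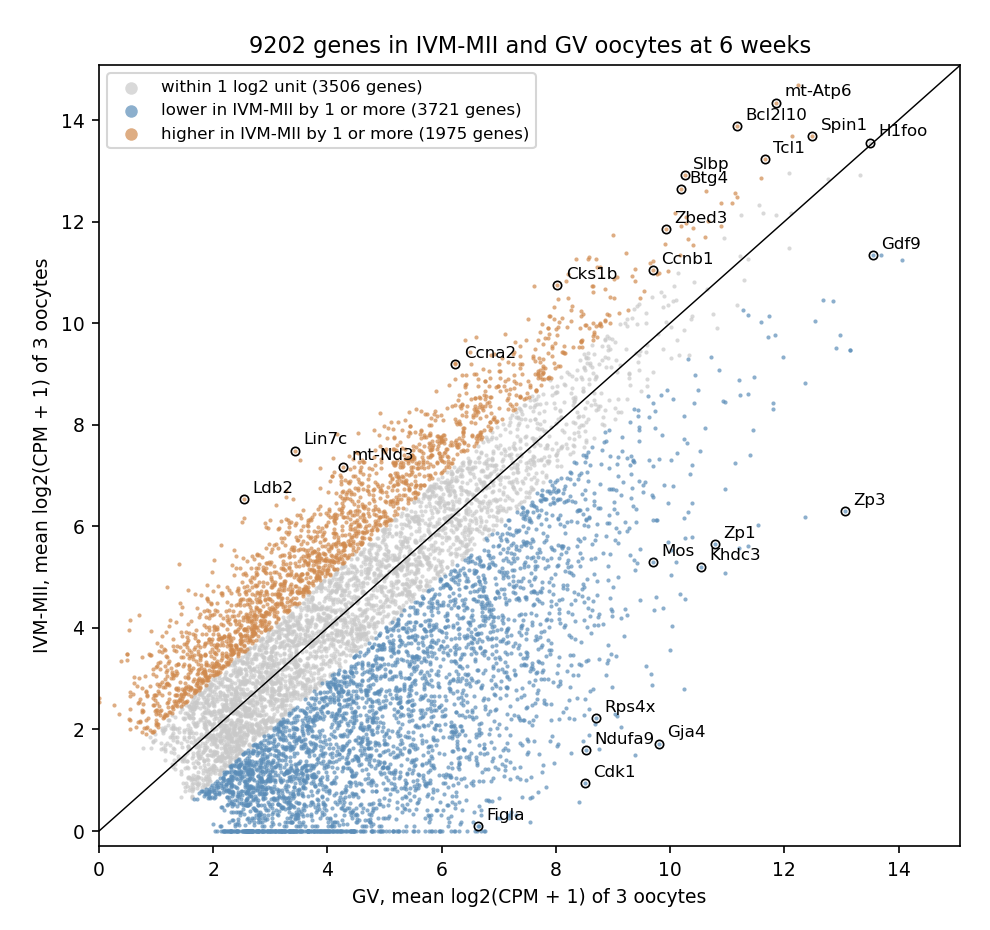
Mean log2(CPM + 1) of 3 GV oocytes (x axis) and 3 IVM-MII oocytes (y axis) for 9202 genes, with the 3721 lower and 1975 higher genes coloured. Genes lower in IVM-MII oocytes reach farther from the diagonal than genes higher in them.

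The 3′ ends of transcripts bear on this comparison because the cytoplasmic polyadenylation element, a U-rich motif near the poly(A) signal, is the known address for lengthening the tail of stored mRNAs. Below are 30-base stretches, written as DNA 5′ to 3′ on the mRNA strand, from the last 100 bases of the longest 3′ UTR that GENCODE M21 annotates for each gene (build GRCm38). TTTTAT, the common form of the element, and AATAAA, the poly(A) signal, are in capitals. The first set holds TTTTAT; Btg4, Cks1b, Orc6, Cdc20, Tcl1 and Plk4 were higher in IVM-MII oocytes, Bub1b was not called, and Gdf9 and Emg1 were lower.
Btg4 (chr9:51119803-51119832, plus strand): atccctTTTTATgtctttttaaaagtttga
Cks1b (chr3:89415472-89415501, minus strand): ttgattaaaggaagttTTTTATaatcttaa
Orc6 (chr8:85308249-85308278, plus strand): tcaagcccAATAAAtgttatTTTTATatgc
Cdc20 (chr4:118432912-118432941, minus strand): tTTTTATTTTATtttttctAATAAAgttcg
Tcl1 (chr12:105216791-105216820, minus strand): gtgggaTTTTATgtggttctattttagaga
Plk4 (chr3:40816842-40816871, plus strand): aatacaTTTTATaaAATAAAcacagtggta
Bub1b (chr2:118641559-118641588, plus strand): tgtgtaTTTTATAATAAAatagtttttgtt
Gdf9 (chr11:53437860-53437889, plus strand): ctgtggTTTTATgtgacggaagAATAAAct
Emg1 (chr6:124704381-124704410, minus strand): ttttcctataaagagTTTTATttcgttttt

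The second set, all of genes lower in IVM-MII oocytes, holds AATAAA and no TTTTAT in its last 100 bases.
Gja4 (chr4:127311421-127311450, minus strand): gatcctcaAATAAAcaggactccatcataa
Psmc2 (chr5:21803758-21803787, plus strand): cgcacaaaAATAAAagatttaaaaactgtg
Khdc3 (chr9:73104409-73104438, plus strand): ttaaagtattctAATAAAaaaaaaattgca
Bud31 (chr5:145148047-145148076, plus strand): tgtaaaAATAAAacctttagacctcctcgc
Zp2 (chr7:120126772-120126801, minus strand): tctttaaactctAATAAAattatcctctgg
Both sets were picked by hand, so they do not show how often motif and direction go together. No higher gene without TTTTAT is shown. Of the 15 leading higher genes described below, only 5 held it in their last 100 bases. Orc6, Cdc20 and Bub1b were chosen after their values were seen. A match is a run of letters in the annotated sequence and not a tested site, and the presence of TTTTAT did not by itself separate higher from lower genes, as Gdf9 and Emg1 show.

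Leading genes were ranked among those with at least 20 CPM in the higher group and no overlap between the groups. Predicted genes, Riken clones and pseudogenes were left out. Of the genes ranked, Gja4 had the largest lower difference. It encodes connexin 37, through which gap junctions link the oocyte with granulosa cells (chromosome 4, 127311421 to 127314039, protein coding). GV oocytes held 952, 932 and 805 CPM of Gja4, and IVM-MII oocytes 26.7, 0 and 0.295 CPM, a difference of −8.08. Its summed counts were 9982 (exact Poisson 95% interval 9787.1 to 10179.8) in GV and 116 (95.9 to 139.1) in IVM-MII oocytes. These intervals cover counting error only, since reads were not collapsed to molecules by identifiers. Bud31, a splicing factor gene, stood at 725 ± 334 CPM (SD, n = 3 oocytes) in GV oocytes against 1.86, 6.83 and 0 CPM. Emg1, whose product modifies 18S ribosomal RNA, stood at 354, 318 and 348 CPM against 2.32, 0 and 0 CPM. The lack of overlap in these genes follows from the rule by which they were chosen.

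The M-phase kinase itself was among the same leading genes. Cdk1 (chromosome 10, 69335146 to 69352938) was measured at 381 ± 130 CPM (SD, n = 3 oocytes) in GV oocytes, of which the lowest held 243 CPM, and at 0.232, 0 and 4.72 CPM in IVM-MII oocytes, a 231-fold lower mean. Psmc2, an ATPase subunit of the proteasome, stood at 480, 278 and 610 CPM against 2.55, 7.15 and 0 CPM. Cpsf4l, a gene related to the cleavage and polyadenylation factor Cpsf4, stood at 1329, 1078 and 1253 CPM against 3.94, 3.9 and 13 CPM. Sgf29, a subunit of a histone acetyltransferase complex, was at 683, 381 and 694 CPM in GV and at 10.9, 0.325 and 3.54 CPM in IVM-MII oocytes. None of these 4 genes overlapped between the groups, as the rule for leading genes required.

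The other leading lower genes were spread over several functions. Ppil3, a cyclophilin, gave 2053 counts in GV oocytes (1965.1 to 2143.8) and 2 in IVM-MII oocytes (0.2 to 7.2). Cst3, the protease inhibitor cystatin C, gave 1592 counts (1514.7 to 1672.2) and 3 (0.6 to 8.8). Both were thus close to the limit of detection at metaphase II. Ndufa9 and Ndufv1, subunits of respiratory complex I, differed by −6.93 and −6.92, and the core splicing protein gene Snrpd2 by −6.92. The small GTPase gene Arl2 (−6.96) and Cyth2, an exchange factor for ARF GTPases (−6.89), were also among the 15.

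In the other direction, under the same rule, Lin7c, a scaffold gene of cell junctions, had the largest difference, 4.05. Its levels were 8.68, 16.4 and 6.58 CPM in GV oocytes and 148, 174 and 222 CPM in IVM-MII oocytes. Ldb2, a cofactor of LIM-domain transcription factors (chromosome 5, 44472132 to 44799680), was next at 4.00, rounded up. It held 6.64, 7.35 and 2.08 CPM in GV and 92.3, 114 and 73.4 CPM in IVM-MII oocytes. For both genes the lack of overlap was again part of the rule. R3hdm1, a gene with an R3H nucleic acid binding domain, stood at 9.96, 33.5 and 14.2 CPM against 230 ± 63.8 CPM (SD, n = 3 oocytes), with 183 CPM in the lowest of the 3. Shoc2, a scaffold of RAS-MAPK signalling, stood at 2.3, 10.7 and 3.81 CPM against 47.1, 111 and 57.2 CPM. Gtf2e1, a subunit of the general transcription factor TFIIE, stood at 2.55, 7.83 and 1.73 CPM against 35.3, 38.4 and 84.3 CPM.

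Several of the remaining leading higher genes act on RNA or chromatin. Cnot4, an E3 ligase that associates with the CCR4-NOT deadenylase, was at 17.4, 72.8 and 8.32 CPM in GV oocytes and at 310, 195 and 192 CPM in IVM-MII oocytes. Magohb, a core protein of the exon junction complex, was at 13, 19.5 and 16.3 CPM against 90.5, 249 and 191 CPM. Ehmt1, a histone H3 lysine methyltransferase, was at 0.766, 14.5 and 1.39 CPM against 79.8, 31.2 and 24.2 CPM. In Cnot4 and Ehmt1 the highest GV value was that of GV oocyte 2 and the highest IVM-MII value that of IVM-MII oocyte 1. The same held for Esco1, a cohesin acetyltransferase (3.77), the RNA-binding gene Rbm27 (3.43), Srrm1, a splicing coactivator (3.28), Slf1, which takes part in DNA repair (3.31), Acap2 (3.61) and Rell1 (3.18). Mospd1 was the most abundant of these genes, at 79.4, 159 and 46.1 CPM in GV oocytes and 1169, 484 and 937 CPM in IVM-MII oocytes.

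**Figure D2:**
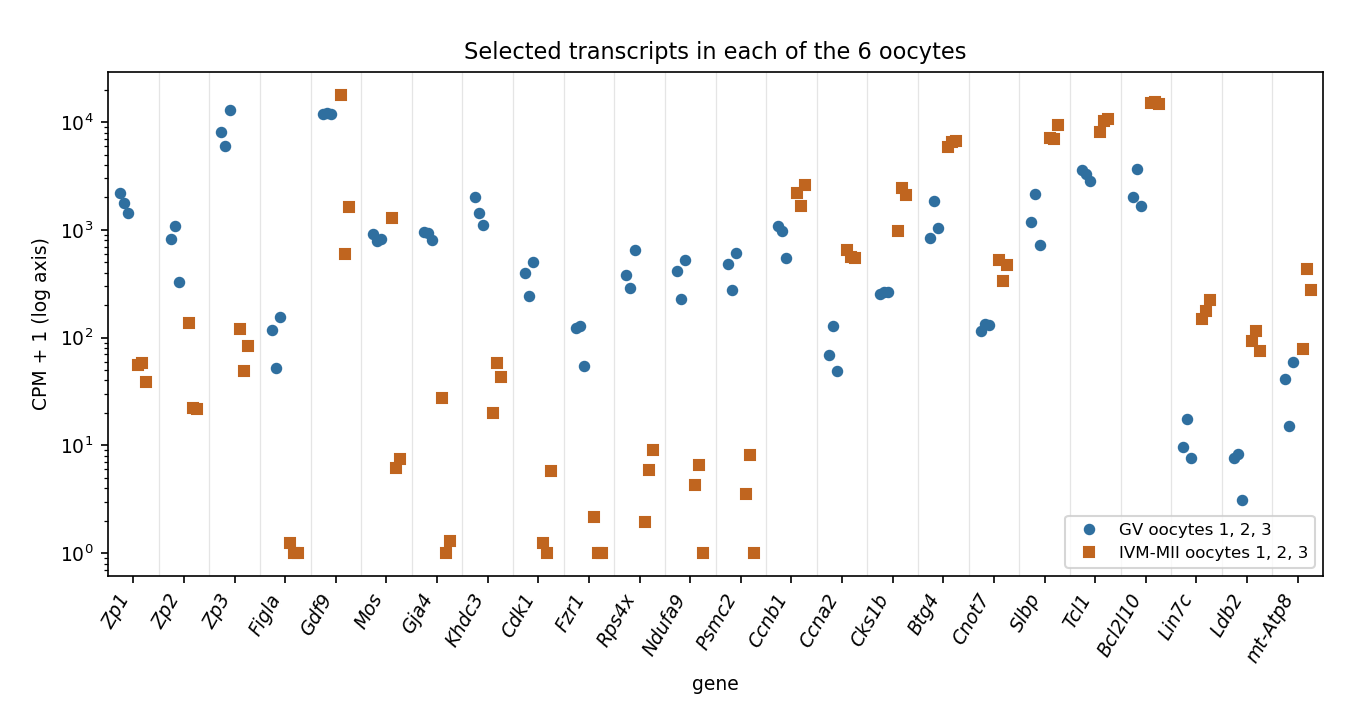
CPM + 1 on a log axis in each of the 6 oocytes (points) for selected named genes, GV oocytes as circles and IVM-MII oocytes as squares. Gja4 and Zp3 lie far lower in all 3 IVM-MII oocytes, Slbp and Btg4 lie higher in all 3, and Mos and Gdf9 are high in IVM-MII oocyte 1 and low in the other 2.

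The most abundant messages were partly shared. Per length, the linker histone of oocytes, H1foo, had a mean of 13652 TPM, the unit scaled by transcript length, in GV and 16846 TPM in IVM-MII oocytes. Ldhb, the heart-type lactate dehydrogenase subunit, had 9824 and 9201 TPM, although IVM-MII oocyte 1 held 2271 CPM against 15077 and 13610 CPM in the other 2. Fbxw24, an oocyte F-box gene, had 5548 and 6021 TPM. These 3 genes were among the 8 highest of GV oocytes by CPM and differed by 0.06, −0.40 and 0.08 between the groups, with either sign when single oocytes were left out.

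Other abundant genes differed. Bcl2l10, an oocyte-enriched member of the BCL2 family (chromosome 9, 75347758 to 75351632), stood at 2004, 3664 and 1680 CPM in GV oocytes. It reached 15197, 15245 and 14852 CPM in IVM-MII oocytes and was the highest nuclear gene there by CPM. In TPM the mean went from 2687 to 15635. Tcl1, a cofactor of AKT kinases, stood at 3615, 3324 and 2816 CPM against 8172, 10201 and 10784 CPM. Spin1, a histone reader abundant in oocytes, stood at 5700, 5882 and 5717 CPM against 17006, 10279 and 13133 CPM. Ubb, a polyubiquitin gene, went the other way, with 7612, 5190 and 5268 CPM against 555, 1207 and 1720 CPM. Dppa3, a maternal factor that protects DNA methylation in the zygote, differed by 0.87, overlapped between the groups, and reached 1 or more without GV oocyte 1 (1.0), GV oocyte 3 (1.14) or IVM-MII oocyte 1 (1.11). The locus CT010467.1, annotated as ribosomal RNA and so not a polyadenylated message, took 2034 to 10466 CPM in GV and 8990 to 17720 CPM in IVM-MII oocytes.

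The zona pellucida is the glycoprotein coat that the growing oocyte secretes. All 4 genes of the coat and its protease were lower in IVM-MII oocytes, against 40.4% of all genes, with a median difference of −4.59. Zp3 stood at 8092, 6034 and 12918 CPM in GV and at 119, 47.8 and 82.8 CPM in IVM-MII oocytes. Zp1, which cross-links zona filaments, stood at 2183, 1758 and 1441 CPM against 54.5, 56.9 and 38.0 CPM. Zp2 stood at 821, 1076 and 327 CPM against 137, 21.1 and 20.6 CPM. All 3 coat genes were apart between the groups. Astl encodes ovastacin, the protease that cleaves ZP2 after fertilisation. It overlapped: GV oocytes held 416, 652 and 257 CPM, IVM-MII oocytes 725, 8.45 and 21.2 CPM, and its difference of −2.95 was −4.83 without IVM-MII oocyte 1 and −1.70 without IVM-MII oocyte 2.

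Among 11 oocyte transcription factors, 4 were lower and 1 was higher, against 40.4% and 21.5% of all genes. The list median ran from −1.41 without IVM-MII oocyte 1 to 0.44 without GV oocyte 2. Figla, which switches on the zona genes during follicle formation, gave 1123 counts in GV oocytes and 1 count in IVM-MII oocytes, with 117, 51.7 and 155 CPM in the former. Nobox, a homeobox factor of the oocyte programme, stood at 1104, 1265 and 1438 CPM against 131, 254 and 236 CPM. Foxr1, a forkhead gene expressed in oocytes, stood at 94.2, 77.6 and 119 CPM against 11.6, 3.58 and 1.77 CPM. Gtf2a1l, a germ cell form of TFIIA, differed by −1.42. No oocyte of one group overlapped the other in these 4 genes.

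Of 6 genes for secreted oocyte factors and the receptor Kit, 3 were lower and 0 higher, and only Fgf8 was so in every oocyte. Fgf8, which acts on cumulus cell glycolysis together with BMP15, stood at 139 ± 35.6 CPM (SD, n = 3 oocytes) in GV and 0, 0 and 8.55 CPM in IVM-MII oocytes. Gdf9, the growth factor that directs cumulus cells, stood at 11874, 12235 and 11799 CPM against 17888, 599 and 1631 CPM. Its difference of −2.20 was −3.60 without IVM-MII oocyte 1 and −1.15 without IVM-MII oocyte 2. Plat, tissue plasminogen activator, was at 1365, 2010 and 261 CPM against 4199, 31.9 and 29.2 CPM, and its difference of −2.48 was −4.83, −1.33 and −1.27 without IVM-MII oocytes 1, 2 and 3 in turn. Bmp15, the partner of GDF9, was at 192, 325 and 65.8 CPM against 512, 251 and 168 CPM, a difference of 0.79 that was not called. It was 0.16 without GV oocyte 3, and it passed 1 without GV oocyte 2 (1.30) or IVM-MII oocyte 3 (1.16).

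The subcortical maternal complex, a protein assembly under the oocyte membrane that the early embryo needs, was uneven. Of its 7 genes 4 were lower and 1 was higher. Khdc3 stood at 2017, 1444 and 1120 CPM in GV and at 19.0, 57.2 and 42.1 CPM in IVM-MII oocytes. Tle6 stood at 2009, 1592 and 747 CPM against 145, 30.2 and 36.2 CPM. Ooep stood at 2120 ± 905 CPM against 146 ± 138 CPM (SD, n = 3 oocytes each). Zbed3 was the exception, with 1006, 1073 and 843 CPM against 4345, 3249 and 3611 CPM. Members of one complex thus lay apart in opposite directions in every oocyte.

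The oocyte NLRP, Oog and Oosp genes, most of them clustered paralogs of oocytes, leaned the other way. Of 16, 2 were lower and 6 higher, with a median of 0.71. Nlrp4e stood at 5.36, 22.1 and 9.01 CPM in GV and at 37.6, 26.7 and 46.6 CPM in IVM-MII oocytes, and Oosp2, a secreted oocyte protein, at 1140, 488 and 1431 CPM against 269, 215 and 192 CPM. Nlrp4f and Nlrp4a, each with a difference of 1.66, overlapped between the groups, and Nlrp4a was at 1.10 without GV oocyte 3. The expected counts divide reads between near-identical paralogs, so single values in this family are uncertain. Of 15 other maternal effect genes, 4 were lower and 3 higher. Zar1l, a relative of the maternal RNA-binding gene Zar1, differed by −5.54 and the ubiquitin hydrolase Uchl1 by −1.80 (−1.13 without IVM-MII oocyte 1), whereas the autophagy gene Atg5 (1.71) and Zfp57 (1.20), which guards imprints, were higher, all 4 with no overlap.

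Prophase arrest is held by cAMP, which reaches the oocyte partly through gap junctions, and ends when cyclin B-CDK1 is activated. Of 10 genes of the cAMP and gap junction list, 1 was lower, Gja4, and 1 higher, Akap7, an anchor of protein kinase A at 23.5, 42.5 and 30.5 CPM in GV and 111, 59.8 and 108 CPM in IVM-MII oocytes. Prkar2b, a regulatory subunit of that kinase, and Pde3a, the phosphodiesterase that lowers cAMP at resumption, differed by 0.90 and −0.65 and were not called, which rested on single oocytes. Prkar2b was at 1.04 without IVM-MII oocyte 1 and 1.32 without IVM-MII oocyte 2. Pde3a was at −2.76 without IVM-MII oocyte 1 and at 0.40 without either of the other 2, and among GV oocytes at −1.02, 0.20 and −1.14 without oocytes 1, 2 and 3 in turn. Of 17 genes of cyclin B-CDK1 and its regulators, 4 were lower and 4 higher.

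Within that list CDK1 and its partners lay in opposite directions. Ccnb1, cyclin B1, stood at 1082, 981 and 544 CPM in GV and at 2195, 1650 and 2631 CPM in IVM-MII oocytes, whereas Cdk1 did not exceed 4.72 CPM in the latter. Ccna2, cyclin A2, stood at 67.9, 128 and 47.8 CPM against 654, 555 and 543 CPM. Cks1b, a small subunit that binds CDKs, stood at 251, 264 and 265 CPM against 969, 2470 and 2113 CPM. In these 3 genes the lowest IVM-MII oocyte lay above the highest GV oocyte. Arpp19, whose product inhibits the phosphatase PP2A once phosphorylated, was lower, at 238, 178 and 246 CPM against 96.7, 17.9 and 37.7 CPM.

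Metaphase II arrest is kept by the MOS-MAPK pathway. Of 9 of its genes 4 were lower and 2 higher. Mos itself stood at 907, 781 and 825 CPM in GV oocytes and at 1298, 5.2 and 6.48 CPM in IVM-MII oocytes. The 3 IVM-MII oocytes thus held 1 value above every GV oocyte and 2 near 0, and without IVM-MII oocyte 1 the difference of −4.42 was −6.94. Mapk3 (ERK1) stood at 393, 361 and 332 CPM against 6.96, 38.4 and 36.8 CPM. Map2k2, which phosphorylates it, stood at 122, 84.9 and 90.1 CPM against 35.7, 30.9 and 1.77 CPM, and its difference of −2.74 was −1.53 without IVM-MII oocyte 3. The other MAPK kinase gene, Map2k1, was higher, at 138, 178 and 53.4 CPM against 604, 193 and 342 CPM.

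The anaphase-promoting complex marks cyclin B and securin for destruction. Of its 18 genes 8 were lower and 3 higher, near the 40.4% and 21.5% of all genes. Fzr1, the coactivator CDH1 that keeps cyclin B low in GV oocytes, stood at 121, 126 and 53.7 CPM in GV and at 1.16, 0 and 0 CPM in IVM-MII oocytes. Ube2c, the ubiquitin-conjugating enzyme of the complex, stood at 327, 269 and 533 CPM against 56.6, 30.6 and 2.06 CPM. The small subunit genes Anapc13 and Anapc11 differed by −3.51 and −2.64, again with no overlap. Cdc20, the other coactivator, was higher at 419, 286 and 568 CPM in IVM-MII against 228, 232 and 153 CPM in GV oocytes. The list median of −0.51 was −0.03 without IVM-MII oocyte 2 and −1.06 without GV oocyte 3.

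In the spindle checkpoint and kinetochore list 12 of 24 genes were higher and 3 lower, against 21.5% and 40.4% of all genes, with a median of 0.86. In 4 genes every IVM-MII oocyte lay above every GV oocyte and in 4 below, against 13.1% and 30.1% of all genes, so most of the 12 higher genes overlapped. Knl1, a scaffold of the outer kinetochore, stood at 5.87, 43.7 and 0.693 CPM in GV and at 171, 11.4 and 42.1 CPM in IVM-MII oocytes. Sgo2a, the shugoshin that protects centromeric cohesin in meiosis, stood at 11.5 ± 17.5 CPM against 43.8 ± 51.1 CPM (SD, n = 3 oocytes each). Both overlapped, with GV oocyte 2 and IVM-MII oocyte 1 the highest of their groups. The difference of Knl1, 2.49, was 1.52 without IVM-MII oocyte 1 and 1.36 without GV oocyte 3, and that of Sgo2a, 2.36, ran from 1.20 without GV oocyte 3, with 1.36 without IVM-MII oocyte 1, to 3.72 without GV oocyte 2. Spc24, a subunit of the NDC80 complex, and the checkpoint gene Mad1l1 were lower with no overlap, by −4.09 and −2.23, the latter −1.17 without IVM-MII oocyte 2.

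Spindle pole genes were mixed, with 4 of 19 lower and 6 higher. Plk4, the kinase of centriole duplication, stood at 62.8, 74.7 and 38.1 CPM in GV and at 270, 162 and 163 CPM in IVM-MII oocytes. Nedd1, which recruits gamma-tubulin to acentriolar spindle poles, stood at 27.8, 33.2 and 11.8 CPM against 108, 63.7 and 84.3 CPM. Tpx2, the activator of Aurora A, was higher by 1.61; its groups were apart here but overlapped with the scaling over all 18 libraries. Birc5 (survivin) differed by −1.39 but overlapped, since IVM-MII oocyte 1 held 114 CPM and the other 2 held 1699 and 1358 CPM. Without IVM-MII oocyte 1 it was at −0.15 and so not called, and without IVM-MII oocyte 2 at −2.10.

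Cohesin ties sister chromatids together through the long prophase arrest. Of 14 genes of cohesin and its regulators 7 were higher and 2 lower, against 21.5% and 40.4% of all genes. In 3 every IVM-MII oocyte lay above every GV oocyte, against 13.1% of all genes. The cohesin genes Rec8, Stag1, Stag2, Stag3 and Rad21l had too few counts to compare. The list median of 1.10 was 0.30 without IVM-MII oocyte 1, 0.57 without GV oocyte 3 and 0.64 without GV oocyte 1. Esco2, an acetyltransferase that establishes cohesion, stood at 68.9, 213 and 83.9 CPM in GV and at 536, 258 and 488 CPM in IVM-MII oocytes. Wapl, which releases cohesin, stood at 2.81, 167 and 6.93 CPM in GV oocytes and at 514 CPM in IVM-MII oocyte 1 against at most 34.1 CPM in the other 2, and the loader gene Nipbl at 0.255, 17.1 and 0.693 CPM against 87.7, 11.7 and 4.72 CPM. In Wapl and Nipbl a single oocyte of each group carried most of the level. The difference of Wapl, 2.08, was 0.66 without IVM-MII oocyte 1, 0.99 without GV oocyte 1 and 3.72 without GV oocyte 2, and that of Nipbl, 2.46, was 1.34 without IVM-MII oocyte 1.

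Actin and its regulators position the spindle and pinch off the polar body. Of 24 genes 5 were lower and 8 higher. Pfn1 (profilin) stood at 832, 392 and 1339 CPM in GV and at 70.8, 110 and 198 CPM in IVM-MII oocytes. Cfl1 (cofilin) stood at 475, 335 and 463 CPM against 60.6, 91.7 and 50.4 CPM. Arpc1a, a subunit of the ARP2/3 complex, differed by −3.56. Ect2, an exchange factor needed for cytokinesis, was higher at 100, 55.6 and 29.2 CPM against 4.34, 27.3 and 7.62 CPM. All 4 genes were apart between the groups.

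Poly(A) tails are removed by deadenylases. Of 17 deadenylation genes 8 were higher and 2 lower, against 21.5% and 40.4% of all genes, and in 4 every IVM-MII oocyte lay above every GV oocyte, against 13.1%. The list had a median of 0.99 that was 0.15 without IVM-MII oocyte 1, 0.63 without GV oocyte 3 and 1.57 without GV oocyte 2. Btg4, the adaptor that brings the CCR4-NOT deadenylase to maternal mRNA (chromosome 9, 51060901 to 51119875), stood at 838, 1848 and 1040 CPM in GV and at 5824, 6590 and 6745 CPM in IVM-MII oocytes. Cnot7, a catalytic subunit, stood at 114, 133 and 130 CPM against 519, 331 and 476 CPM. Cnot3, a structural subunit, was higher by 1.73 (1.08 without GV oocyte 3), also with no overlap. Cnot6l, another catalytic subunit, was less even: GV oocytes held 7.15, 62.4 and 12.5 CPM and IVM-MII oocytes 280, 23.7 and 31.5 CPM. Its difference of 1.67 was 0.57 without IVM-MII oocyte 1, 1.06 without GV oocyte 1 and 2.54 without GV oocyte 2.

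After deadenylation mRNAs are uridylated, decapped and degraded by exonucleases. Of 22 genes of these steps 8 were lower and 4 higher, near the 40.4% and 21.5% of all genes. Lsm4 and Lsm6, subunits of the ring that binds the 3′ end of deadenylated mRNA, differed by −5.08 and −3.88. The exosome subunit genes Exosc5 and Exosc4 differed by −4.48 and −4.13. In all 4 every IVM-MII oocyte lay below every GV oocyte. Tut7, a terminal uridylyltransferase that tags short tails in oocytes, was the highest of the list in difference, at 13.8, 9.96 and 4.51 CPM in GV and 70.1, 76.7 and 62.5 CPM in IVM-MII oocytes. Tut7 was chosen after its values were seen.

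Of 28 genes of maternal mRNA storage and polyadenylation, 8 were lower and 9 higher, against 40.4% and 21.5% of all genes. Pabpc1l, the embryonic poly(A)-binding protein of oocytes, stood at 61.0 to 98.9 CPM in GV and at 4.87, 3.9 and 0 CPM in IVM-MII oocytes. Patl2, a repressor of translation in growing oocytes, stood at 64.1, 107 and 48.5 CPM against 15.1, 0.65 and 12.1 CPM. Cpsf3, the endonuclease that cuts pre-mRNA before polyadenylation, differed by −3.68 with no overlap. Dazl, an RNA-binding protein that promotes translation in maturing oocytes and was chosen after its values were seen, stood at 344, 649 and 280 CPM against 2665, 1688 and 1110 CPM.

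A list of 14 mRNAs known to be recruited to polysomes in maturation held 10 higher and 2 lower genes, against 21.5% and 40.4% of all genes, and in 9 every IVM-MII oocyte lay above every GV oocyte, against 13.1%. Its median was 1.48. Slbp, the stem-loop binding protein of histone mRNAs (chromosome 5, 33634952 to 33652574), stood at 1194, 2137 and 718 CPM in GV and at 7084, 6979 and 9369 CPM in IVM-MII oocytes. Its difference of 2.66 was the largest of the list in the higher direction. Orc6, a subunit of the origin recognition complex, stood at 234, 196 and 273 CPM against 753, 874 and 886 CPM. The 2 lower genes were Mos and Plat, both high in IVM-MII oocyte 1. Bub1b, the checkpoint kinase BUBR1, was also highest in IVM-MII oocyte 1 but was not called. It stood at 46.7, 228 and 35.0 CPM in GV and at 486, 15.3 and 24.8 CPM in IVM-MII oocytes.

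Messages for ribosomes formed the largest block of lower genes. Of 77 cytosolic ribosomal protein genes 74 were lower, 72 with no overlap, against 40.4% and 30.1% of all genes, and 0 were higher. Their summed level was 15809, 9095 and 23951 CPM in GV and 1394, 2317 and 1979 CPM in IVM-MII oocytes. Rps4x, of the small subunit, stood at 377, 286 and 656 CPM against 0.928, 4.88 and 7.96 CPM. Rpl39, of the large subunit, differed by −6.47 and Rps27a by −6.32. Reads of these genes can be shared with their many pseudogenes, so single values are uncertain. The ribosomal protein genes outside the call included Rplp2 (−0.26) and Rps15a (−0.70), which were chosen after their values were seen. Transcripts of this list are short, with a median of 860 bases. Of all 688 protein-coding genes with transcripts of at most 1000 bases, 67.0% were lower, and in 58.3% every IVM-MII oocyte lay below every GV oocyte. The part of length in the list was not tested.

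Of 36 genes for translation initiation factors 16 were lower and 11 higher, near the 40.4% and 21.5% of all genes. Eif3l, a subunit of eIF3, stood at 248, 218 and 262 CPM in GV and at 2.09, 14.6 and 0 CPM in IVM-MII oocytes. Eif3g stood at 400, 223 and 540 CPM against 0.928, 18.5 and 5.01 CPM. Eif3m of the same complex and Eif2b4, a subunit of the exchange factor for eIF2, differed by −5.11 and −5.18. By contrast Eif5, the GTPase-activating protein of eIF2, was higher at 1372, 1041 and 616 CPM in IVM-MII against 193, 388 and 168 CPM in GV oocytes, and was chosen after its values were seen. Of 12 elongation and termination factors 7 were lower and 0 higher. Eef1a1, which delivers tRNA to the ribosome, stood at 397, 365 and 448 CPM against 16.9, 27.0 and 23.3 CPM, and the exchange factor subunits Eef1d and Eef1g differed by −5.36 and −3.19. Eef2k, the kinase that restrains elongation, differed by −1.56 with overlap, and it was at −0.52 without IVM-MII oocyte 2, −0.69 without GV oocyte 2 and −2.63 without GV oocyte 3. The median of the elongation list, −1.27, was −0.50 without IVM-MII oocyte 1.

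The respiratory chain is built from nuclear and mitochondrial genes, and these 2 sets lay on opposite sides. Of 35 nuclear genes for complex I 33 were lower and 1 was higher, with a median of −4.20. Ndufa9 stood at 415, 228 and 529 CPM in GV and at 3.25, 5.53 and 0 CPM in IVM-MII oocytes, Ndufv1, which binds NADH, at 227, 177 and 174 CPM against 3.02, 0 and 0 CPM, and Ndufb4 at 173, 87.8 and 288 CPM against 0.696, 0.976 and 1.47 CPM. Ndufa2 differed by −6.72. Ndufa10 was the 1 higher gene, with 581, 936 and 970 CPM in IVM-MII against 230, 149 and 256 CPM in GV oocytes.

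Of 39 nuclear genes for complexes II to V 33 were lower and 0 higher, with a median of −3.22. Atp5o, of the ATP synthase stalk, stood at 425 ± 227 CPM (SD, n = 3 oocytes) in GV and at 3.71, 2.6 and 2.06 CPM in IVM-MII oocytes. Atp5j of the same enzyme, Cox7c of cytochrome c oxidase and Uqcrq of complex III differed by −6.10, −6.34 and −5.66. All 4 were apart between the groups.

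The 13 mitochondrially encoded mRNAs held 11 higher and 0 lower genes. Only 3 of the 13 had every IVM-MII oocyte above every GV oocyte, since IVM-MII oocyte 1 lay near the GV range. Mt-Cytb, cytochrome b, stood at 5448, 1742 and 11931 CPM in GV and at 10610, 41966 and 40794 CPM in IVM-MII oocytes. Mt-Atp6, of the ATP synthase, stood at 4326, 1367 and 8654 CPM against 7787, 35958 and 32130 CPM. The complex I gene mt-Nd3 differed by 2.90 with overlap and mt-Atp8 by 2.68 without it. All mitochondrial genes together took 2.01, 0.917 and 3.70% of the counts in GV and 3.22, 11.7 and 10.1% in IVM-MII oocytes. In both groups the oocytes with the title prefix Y03 held larger shares than those with Y01. The median difference of the 13 mRNAs, 1.89, was 1.37 within title prefixes. With all mitochondrially encoded genes left out of the library totals the counts of lower and higher genes were 3736 and 1988.

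Other mitochondrial genes of the nucleus followed the lower direction. Of 77 mitochondrial ribosomal protein genes 59 were lower and 2 higher. Mrpl46 stood at 176, 78.1 and 210 CPM in GV and at 0.928, 0 and 0 CPM in IVM-MII oocytes, Mrpl33 differed by −5.69 and Mrpl22 by −5.69. Mrps11 gave 604 counts in GV and 2 in IVM-MII oocytes. Of 23 import genes 17 were lower and 3 higher. Tomm40, the outer membrane pore, stood at 63.1, 73.1 and 80.8 CPM against 2.32, 0 and 0 CPM, and Timm50, Timm13 and Timm17b of the inner membrane differed by −5.31, −5.06 and −4.80. Timm23, the inner membrane channel itself, was higher at 1051, 2337 and 1799 CPM against 555, 324 and 563 CPM and was chosen after its values were seen.

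In the tricarboxylic acid cycle 9 of 18 genes were lower and 1 was higher. Idh3b, a subunit of the NAD-dependent isocitrate dehydrogenase, stood at 38.0, 28.5 and 29.5 CPM in GV oocytes and had no count in IVM-MII oocytes, which is at least 37.6-fold lower against a floor of 3 counts per library. Idh3g of the same enzyme and malate dehydrogenase Mdh2 differed by −5.11 and −3.81. Suclg2, of succinyl-CoA ligase, was the 1 higher gene (2.09). Of 13 glycolysis genes 7 were lower and 0 higher. Pkm, pyruvate kinase, stood at 398, 317 and 227 CPM against 14.6, 64.1 and 49.2 CPM, and Tpi1, Gpi1 and Aldoa differed by −3.44, −2.90 and −2.85, each with no overlap, Aldoa by −1.71 without IVM-MII oocyte 1.

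**Figure D3:**
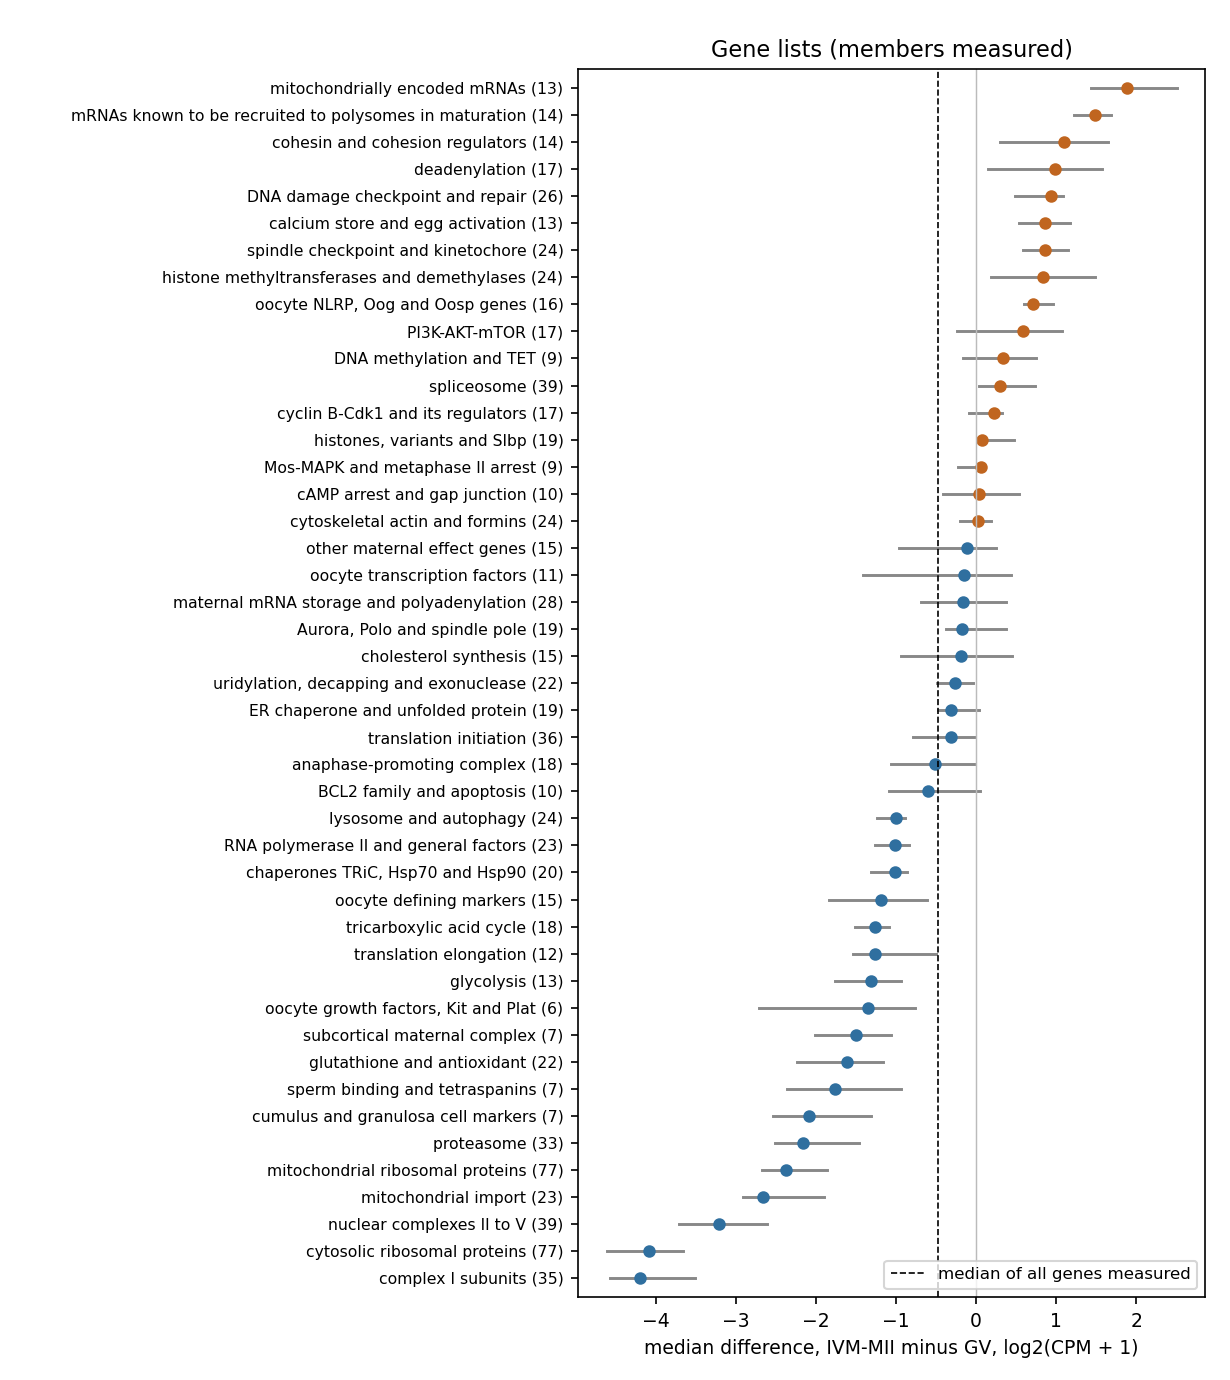
Median difference of each gene list (points), IVM-MII minus GV on the log2(CPM + 1) scale, with the range when each oocyte is left out in turn (bars), the number of members measured in brackets, and the median of all 9202 genes at −0.48 (dashed line). Ribosomal protein and nuclear respiratory genes lie far to the left (medians −4.09 and −4.20 for complex I), mitochondrially encoded and recruited mRNAs to the right (1.89 and 1.48).

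Of 33 proteasome genes 20 were lower and 3 higher. Psmb5, the subunit with chymotrypsin-like activity, stood at 295, 149 and 358 CPM in GV and at 0.464, 5.85 and 0.589 CPM in IVM-MII oocytes. Psmb7 and Psmb1 of the same core particle differed by −5.51 and −4.96. Psmd11, a lid subunit, was higher at 605, 433 and 421 CPM against 115, 225 and 110 CPM, and Psma7 of the core at 2572, 2798 and 4707 CPM against 1408, 793 and 1845 CPM. Both were chosen after their values were seen.

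Of 20 cytosolic chaperones 10 were lower and 2 higher. Hspa8, the constitutive HSP70, stood at 1251, 906 and 725 CPM in GV and at 83.8, 20.2 and 4.13 CPM in IVM-MII oocytes. Cct5 of the TRiC folding chamber stood at 1107, 920 and 1102 CPM against 52.0, 28.0 and 63.7 CPM, and Tcp1 of the same chamber and the prefoldin gene Pfdn6 differed by −4.10 and −5.01. Another prefoldin gene, Pfdn4, chosen after its values were seen, was higher at 1580, 3401 and 2784 CPM against 246, 340 and 413 CPM. Of 19 genes of the endoplasmic reticulum and unfolded protein response 6 were lower and 4 higher. Ddit3 (CHOP), Dnajb11 and the translocon subunit Sec61g differed by −4.76, −4.08 and −3.95 with no overlap, and Pdia6 by −2.83 with 467 CPM in IVM-MII oocyte 1 against 14.6 and 40.1 CPM (−1.79 without IVM-MII oocyte 2).

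Splicing genes lay on both sides. Of 39, 11 were lower and 16 higher, with 10 and 12 free of overlap, against 40.4% and 21.5% of all genes called and 30.1% and 13.1% free of overlap. The SM ring genes Snrpd2 (225, 109 and 356 CPM in GV against 0.696, 1.95 and 0 CPM) and Snrpb, and the U1 gene Snrpc, were lower, the last 2 by −4.58 and −5.01. Prpf31, of the U4/U6 particle, differed by −3.67. Snrpb2 of the U2 particle, chosen after its values were seen, was higher at 397, 663 and 583 CPM in IVM-MII against 113, 126 and 148 CPM in GV oocytes.

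Of 23 genes for RNA polymerase II and general factors 12 were lower and 4 higher. Polr2k, a small shared subunit, stood at 259, 140 and 317 CPM in GV and at 3.02, 9.11 and 3.54 CPM in IVM-MII oocytes, and Polr2i and Polr2l differed by −3.86 and −3.37. Polr2c, chosen after its values were seen, was higher at 2799, 2357 and 2674 CPM against 1264, 963 and 1281 CPM. Subunits of the same enzyme thus lay on both sides with no overlap.

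Chromatin genes showed 2 patterns. Of 24 histone methyltransferases and demethylases 12 were higher and 2 lower, against 21.5% and 40.4% of all genes. Only in 4 did every IVM-MII oocyte lie above every GV oocyte, against 13.1% of all genes. The list median of 0.84 was 0.18 without IVM-MII oocyte 1 and 0.55 without GV oocyte 1. It was 1.31 without GV oocyte 2 and 1.48 without IVM-MII oocyte 3. Suv39h2, an H3 lysine 9 methyltransferase, stood at 35.2, 54.8 and 20.8 CPM in GV and at 359, 183 and 209 CPM in IVM-MII oocytes. Setdb1 and the Polycomb gene Suz12 were highest in GV oocyte 2 and IVM-MII oocyte 1 and overlapped, with differences of 2.47 and 2.46. Of 9 genes of DNA methylation 2 were lower and 2 higher, and the list median of 0.33 was −0.10 without IVM-MII oocyte 1 and −0.17 without GV oocyte 3. Dnmt3l, the cofactor that methylates imprints during oocyte growth, stood at 334, 284 and 197 CPM against 14.6, 17.9 and 28.9 CPM. Tet3, the oxidase that acts on the paternal genome in the zygote, stood at 3.83, 121 and 2.43 CPM against 421, 28.9 and 16.5 CPM, and its difference of 2.26 was 0.86 without IVM-MII oocyte 1, 1.32 without GV oocyte 3 and 3.89 without GV oocyte 2. Dnmt3a (1.15) and Dnmt1 (0.85) overlapped too. Dnmt3a was at 0.66 without IVM-MII oocyte 1 and 0.71 without GV oocyte 3. Dnmt1 was at 0.07 without GV oocyte 3, and it passed 1 without GV oocyte 2 (1.91), IVM-MII oocyte 2 (1.10) or IVM-MII oocyte 3 (1.13).

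Of 19 histone genes, variants and chaperones 6 were lower and 7 higher, all 13 with no overlap. The variant H2afx, which marks broken DNA, stood at 116, 110 and 134 CPM in GV and at 2.78, 4.55 and 12.1 CPM in IVM-MII oocytes, H2afj differed by −3.07, and Chaf1b, of the histone chaperone CAF-1, by −4.39. The H3.3 genes went apart: H3f3a was at 535, 500 and 701 CPM against 265, 222 and 168 CPM, and H3f3b at 2103, 1511 and 2159 CPM against 4663, 5497 and 5846 CPM. Both H3.3 genes were chosen after their values were seen.

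Sperm triggers calcium release from the endoplasmic reticulum of the egg. Of 13 genes of calcium stores and egg activation 6 were higher and 3 lower, with a median of 0.86 that was 0.53 without GV oocyte 3. Orai1, the store-operated channel, stood at 62.6, 28.2 and 41.6 CPM in GV and at 4.64, 0.325 and 2.65 CPM in IVM-MII oocytes, and Calm2, calmodulin, at 895, 751 and 975 CPM against 28.3, 177 and 64.5 CPM. Ppp3r1, the regulatory subunit of calcineurin, was higher at 36.2, 19.8 and 30.1 CPM against 3.06, 11.9 and 4.51 CPM. Atp2b1, a plasma membrane calcium pump, differed by 2.91 but overlapped, with 112 CPM in GV oocyte 2 and 433 CPM in IVM-MII oocyte 1.

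Genes for sperm binding and fusion at the oocyte surface lay on both sides. Izumo1r (Juno) stood at 565, 476 and 818 CPM in GV and at 22.0, 135 and 68.7 CPM in IVM-MII oocytes. Cd9, the tetraspanin needed for fusion, stood at 409, 331 and 559 CPM against 15.1, 39.7 and 42.4 CPM. Of the 7 genes of this list 4 were lower and 3 higher, against 40.4% and 21.5% of all genes. The integrin gene Itga9 was higher at 707, 242 and 584 CPM in IVM-MII against 119, 156 and 67.6 CPM in GV oocytes. Itga6 differed by 1.95 with overlap, and by 0.63 without IVM-MII oocyte 1, 1.26 without GV oocyte 3 and 3.20 without GV oocyte 2. The list median of −1.76 was −0.94 without IVM-MII oocyte 3.

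Of 22 glutathione and antioxidant genes 14 were lower and 2 higher. Glrx, glutaredoxin, stood at 1383, 1038 and 1260 CPM in GV and at 106, 41.6 and 79.6 CPM in IVM-MII oocytes. Gpx4, which reduces lipid peroxides, stood at 211, 117 and 431 CPM against 2.32, 19.2 and 1.77 CPM, and Prdx3 of mitochondria and Gsta4 differed by −4.76 and −4.33. Of 24 lysosome and autophagy genes 12 were lower and 3 higher. The Ragulator genes Lamtor1 and Lamtor4, which dock mTORC1 on lysosomes, differed by −5.05 and −4.39, the autophagosome gene Map1lc3a by −3.69, and cathepsin Ctsb by −3.58, each with no overlap.

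Of 15 cholesterol synthesis genes 6 were lower and 3 higher. Fdft1, squalene synthase, stood at 1428, 1111 and 1170 CPM in GV and at 123, 30.2 and 41.8 CPM in IVM-MII oocytes, and Nsdhl and Fdps differed by −4.68 and −2.75. Hmgcs1, at the head of the pathway, differed by 1.70 with overlap, and by 0.66 without GV oocyte 3 and 2.61 without GV oocyte 2. Of 17 genes of PI3K, AKT and mTOR signalling 2 were lower and 5 higher, and the median of 0.58 ran from −0.24 without IVM-MII oocyte 1 to 1.07 without IVM-MII oocyte 3. Rheb, the GTPase that activates mTORC1, was higher in every IVM-MII oocyte, at 543, 391 and 506 CPM against 242, 164 and 267 CPM, but its difference of 1.11 was 0.90 without GV oocyte 2. Foxo1 (2.29), Akt1 (1.09) and Rps6kb1 (0.71) overlapped, each highest in IVM-MII oocyte 1, without which they were at 1.18, 0.49 and −0.09. Akt1 was also under 1 without GV oocyte 3 (0.69) or IVM-MII oocyte 3 (0.70) and was at 2.06 without IVM-MII oocyte 2, and Rps6kb1 was over 1 without IVM-MII oocyte 2 (1.13) or 3 (1.08).

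Of 10 genes of the BCL2 family and apoptosis 4 were lower and 2 higher, and the list median of −0.60 was 0.05 without IVM-MII oocyte 1 and −1.09 without IVM-MII oocyte 2. Beside Bcl2l10, described above, the list held Cycs, cytochrome c (−1.24), Bcl2l1 (−1.02) and Diablo (−0.63), all with overlap. Single oocytes decided these 3 calls. Cycs was at −0.67 without IVM-MII oocyte 1 and −0.93 without GV oocyte 3, Bcl2l1 at −0.22, −0.97 and −0.67 without IVM-MII oocyte 1, GV oocyte 1 and GV oocyte 2, and Diablo at −1.02 without IVM-MII oocyte 3. With the scaling over all 18 libraries Cycs did not overlap, at 234 CPM or more in GV and 225 CPM or less in IVM-MII oocytes. Of 26 genes of DNA damage checkpoints and repair 13 were higher and 5 lower, against 21.5% and 40.4% of all genes. Only in 5 did every IVM-MII oocyte lie above every GV oocyte, against 13.1% of all genes. The median of 0.93 was 0.48 without IVM-MII oocyte 1 and 0.54 without GV oocyte 3. Chek1, chosen after its values were seen, was higher with no overlap, at 92.7, 129 and 49.6 CPM in GV and 488, 458 and 350 CPM in IVM-MII oocytes. Brca2 stood at 0.255, 65.2 and 1.39 CPM against 287, 40.3 and 29.5 CPM. Rpa2, Xrcc1 and Ercc1 were lower with no overlap, by −4.85, −4.55 and −3.58.

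Markers of other cells were low in both groups, with GV oocyte 3 the highest for granulosa cells. Inha, inhibin alpha of granulosa cells, stood at 40.6, 20.9 and 122 CPM in GV and at 2.32, 0 and 0 CPM in IVM-MII oocytes. Cyp19a1, aromatase, stood at 26.6, 27.0 and 32.2 CPM against 64.0, 0 and 30.6 CPM, and its difference of −1.21 was −2.39, 0.62 and −1.87 without IVM-MII oocytes 1, 2 and 3 in turn. Most of the 31 granulosa markers had too few counts to compare. Of the 7 that could be compared 6 were lower and 0 higher, against 40.4% and 21.5% of all genes. Their median of −2.09 was −1.31 without GV oocyte 3. With every gene that had a count the list median was −0.52, against −0.26 for all genes. Mesenchymal markers summed to 10.2 to 35.7 CPM in GV and 1.77 to 16.6 CPM in IVM-MII oocytes, with 14 of 20 at 0 in all 6, and blood, immune and endothelial markers to 3.32 to 11.9 and 8.78 to 18.6 CPM, with 11 of 17 at 0. The part of such RNA in the other differences was not tested.

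Differences were also ordered by the length and base composition of the transcript. Medians went from −2.34 for 906 genes whose longest annotated 3′ UTR has at most 200 bases, through −1.17 for 200 to 500 bases, −0.49 for 500 to 1000 and −0.11 for 1000 to 2000, to 0.04 for 2304 genes with over 2000. By length of the transcript they went from −2.35 for at most 1000 bases to 0.31 for over 6000 bases. The median transcript had 860 bases in the cytosolic ribosomal protein list, 910 in complex I and 723 in complexes II to V. By GC content the medians of the difference went from 0.70 at 40% or less to −1.86 above 55%. These properties go together across genes, and the medians describe genes, which are not replicates.

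The single oocytes differed in this respect too. In GV oocytes 1, 2 and 3 the median log2(CPM + 1) of the shortest transcripts, up to 1000 bases, was 6.15, 5.55 and 6.61, and that of the longest, over 6000 bases, was 2.78, 4.08 and 2.63. In IVM-MII oocytes 1, 2 and 3 the values were 2.61, 4.08 and 3.61 for the shortest and 4.61, 3.08 and 3.06 for the longest. In both groups the Y01 oocytes had lower medians for the shortest transcripts and higher medians for the longest than the Y03 oocytes. IVM-MII oocyte 1 was the only library in which the longest class lay above the shortest, and GV oocyte 2 held the highest level of long transcripts among GV oocytes. Without IVM-MII oocyte 1 the median of transcripts over 6000 bases was −0.23 instead of 0.31, and without both of these oocytes it was 0.22, while transcripts up to 1000 bases kept medians of −1.96 and −2.21. The part of this length profile in the differences of single genes and of gene lists was not tested. Without both oocytes the ribosomal protein list had a median of −4.05, complex I −3.91, recruited mRNAs 1.44, deadenylation 1.06 and cohesin with its regulators 0.89.

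**Figure D4:**
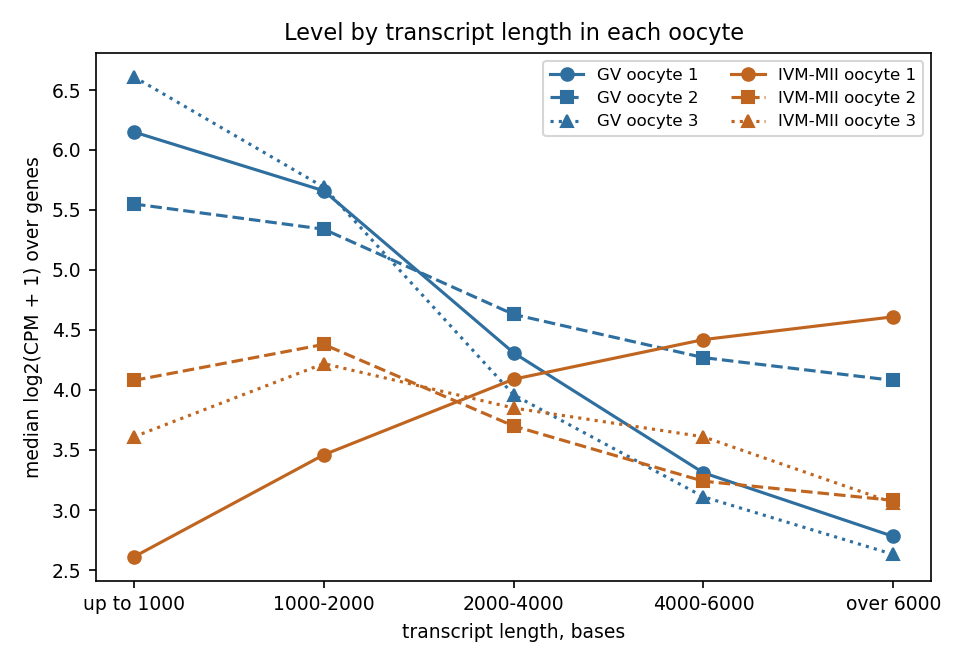
Median log2(CPM + 1) of genes by class of transcript length (x axis, bases) in each of the 6 oocytes (lines). In the 3 GV oocytes the level goes down with length, least in GV oocyte 2, in IVM-MII oocyte 1 it goes up from 2.61 to 4.61, and in the other 2 IVM-MII oocytes it is flatter.

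TTTTAT was counted on the mRNA strand only. It occurred in the last 100 bases of the 3′ UTR in 1291 of 8422 genes (15.3%). Among genes with a 3′ UTR of at least 100 bases, the 6830 without it had a median difference of −0.54, the 1268 with it 0.29, and the 156 with at least 2 copies 0.42. Of genes with the motif 25.8% were lower and 32.3% higher, and of genes without it 41.2% and 20.4%. For AATAAA the medians were −0.76 without and −0.25 with the signal.

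The motif is richer in A and T than the average transcript, so the split was repeated within classes. In 3′ UTRs of 100 to 500 bases the medians were −1.61 without and 0.08 with TTTTAT, and above 2000 bases −0.01 and 0.39. At a GC content above 55% they were −1.87 and −0.46, and at 45% or less 0.35 and 0.61. The genes with the motif had the higher median in each of the 4 length classes and each of the 4 GC classes. Without IVM-MII oocyte 1 the overall medians were −0.65 and −0.03, and without that oocyte and GV oocyte 2 they were −0.56 and 0.18.

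**Figure D5:**
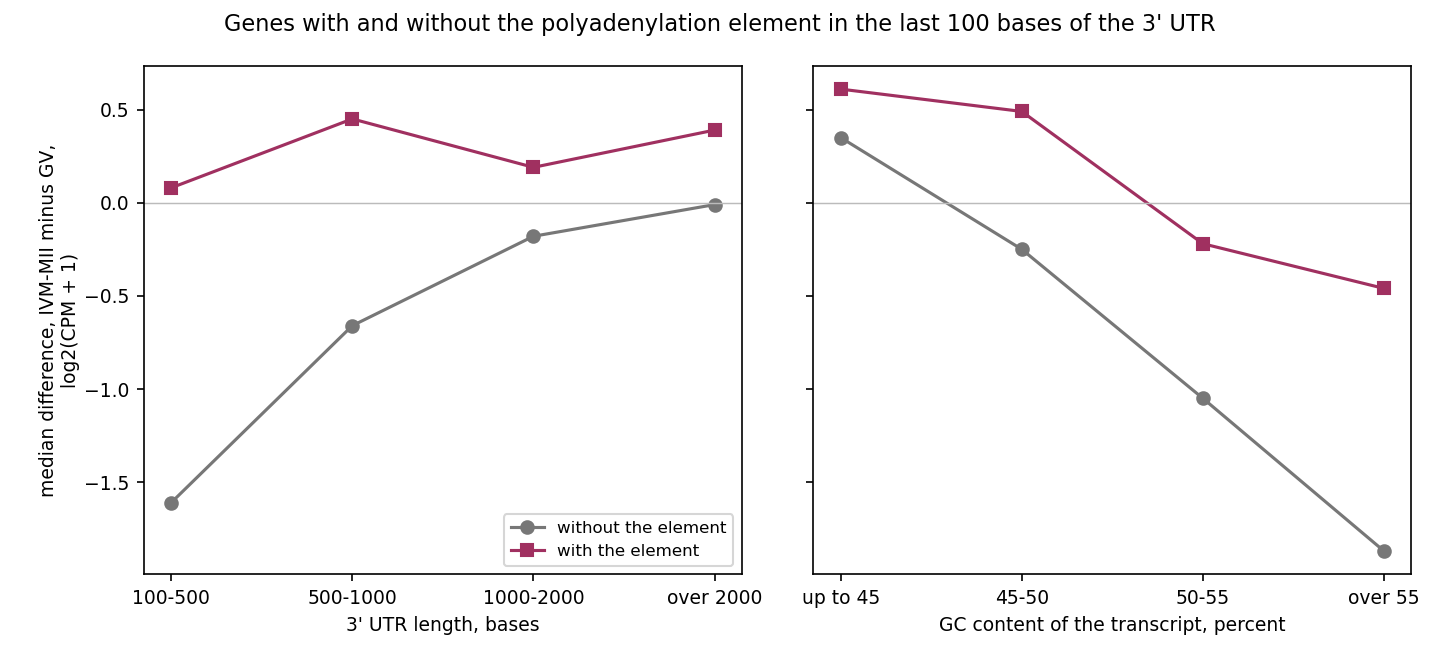
Median difference (IVM-MII minus GV, log2(CPM + 1) scale) of genes with and without TTTTAT in the last 100 bases of the 3′ UTR, by class of 3′ UTR length (left) and of GC content (right). Genes with the motif have the higher median in every class, by most among the length classes in 3′ UTRs of 100 to 500 bases (0.08 against −1.61).

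Among the 15 leading higher genes 5 held TTTTAT in their last 100 bases, and among the 15 leading lower genes 2 did, Emg1 and Ppil3, with median 3′ UTRs of 1599 and 284 bases. The motif was present in 5 of 14 recruited mRNAs, in 9 of 77 ribosomal protein genes and in none of the 4 zona genes. Over the whole 3′ UTR it was found in 14 of the 15 leading higher and 4 of the 15 leading lower genes. Among all genes it was found there in 4795 of 8422. Longer UTRs offer more places for a match.

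Oocytes from mice aged 12 months, matured in the same way, share no library with these and give a second reading of the same contrast. Values below were scaled over all 18 libraries. All 15 leading lower genes lay below the GV range in every IVM-MII oocyte at 12 months as well, with differences of −7.53 to −3.50 and a median of −5.65, against −7.17 at 6 weeks. Of the 15 leading higher genes 13 lay above in every oocyte, with a median of 2.60 against 3.34, while Acap2 (0.87) and Rell1 (1.54) overlapped. The share of all genes without overlap at 12 months was not computed, so these counts have no background beside them. Gja4 stood at 1051, 1264 and 592 CPM in GV and at 16.6, 17.4 and 48.1 CPM in IVM-MII oocytes of 12 months. Whether the ages differed was not tested.

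List medians at the 2 ages can be set beside the median of all 9202 genes, −0.56 at 6 weeks and −0.46 at 12 months on this scaling. Ribosomal protein genes had −4.18 at 6 weeks and −4.40 at 12 months, complex I −4.29 and −3.20, recruited mRNAs 1.38 and 0.97, and mitochondrially encoded mRNAs 1.79 and 1.47. Deadenylation genes had 0.89 and 0.16, and genes of cohesin and its regulators 1.01 and 0.43. Oocyte transcription factors had −0.24 and 0.29, and DNA methylation genes 0.27 and −0.51. Mos, at 1259, 4.95 and 6.27 CPM on this scaling in the IVM-MII oocytes of 6 weeks, was at 1.33, 0 and 5.09 CPM in those of 12 months, and at 1967, 1053 and 539 CPM in the GV oocytes of that age.

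Oocytes of 6 weeks matured together with MSC can be set beside the same GV oocytes, with which they share the comparison, so their values are levels only. Gja4 was at 85.0, 28.0 and 6.9 CPM in them and Cdk1 at 7.38, 3.34 and 0 CPM. Slbp was at 8340, 9875 and 11457 CPM and Btg4 at 5258, 8045 and 8206 CPM. Mos was at 642, 1.0 and 8.63 CPM and Gdf9 at 12631, 1621 and 1351 CPM. The first oocyte of that group, whose title also starts with Y01, held the high values of Mos and Gdf9, as IVM-MII oocyte 1 did.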

How the data were processed

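Messenger RNA was measured in single oocytes by SMART-seq2, per the labels' protocols. Per the file headers, the deposited tables hold FPKM, TPM and expected counts for 47069 Ensembl genes. Per the submitters' processing notes, the tools included TopHat2 2.1.1 and Cufflinks, besides Trim Galore 0.4.5 and FastQC 0.11.8, and the build was GRCm38. Not given in the sources used here are the counting tool, the annotation and the use of strand, so reads of overlapping antisense genes cannot be told apart. Expected counts, as the authors deposited them, divide reads that map to several genes. The deposited TPM served as an alternative unit and for levels between genes, and the deposited FPKM was not used.

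Expected counts were rounded, and edgeR 4.0.16 under R 4.3.3 scaled the 6 libraries by TMM. filterByExpr by group left 9202 genes. The pseudocount was 1 CPM. Folds are ratios of group mean CPM, with a floor of 3 counts per library where a group had none. Depth sets the precision: 3 counts were 0.696 to 1.04 CPM. No p-value was computed, since the labels name no animals. Replicate numbers follow accession order and pair nothing. All else ran in Python 3.11.15 (pandas 2.3.3, NumPy 2.4.6, SciPy 1.17.1; figures by Matplotlib 3.10.9), and the computation was tested on simulated counts. GENCODE M21 matched 46488 of the gene identifiers and gave coordinates, transcripts and 3′ UTRs.

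The members, gene lists and rules were chosen with earlier results of these data known. The 48 lists hold 1131 symbols, of which 1116 matched, and members with too few counts are outside the counts given. Named genes were the 15 of largest difference each way with at least 20 CPM in the higher group and no overlap, predicted genes, Riken clones and pseudogenes aside; the 8 nuclear genes of highest mean CPM in each group; up to 4 members of each list of largest absolute difference with at least 20 CPM; and 12 genes known for roles in maturation. Alternatives covered the scaling (DESeq2 1.42.0 size factors among them), unit, pseudocount, filter, depth, summary, title prefix and each oocyte in turn. Some genes that the rule names are not reported here.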

Additional observations from a re-analysis of the deposited data

How the results depend on the processing

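The settings tried left the direction of the main counts in place: lower genes outnumbered higher ones under each of them. With at least 20 CPM required in the higher group, 2280 of 5568 genes were lower, as fewer genes were compared. Leaving out each oocyte in turn gave 3683 to 3922 lower and 1676 to 2303 higher genes and a median difference of −0.59 to −0.36. That median was −0.16 with the log2 of the mean CPM and 0.0 after centring, by construction.

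Of the named genes, Plat was 0.23 and Cyp19a1 0.14 with the log2 of the mean CPM, Bcl2l1 was 0.13 without GV oocyte 2 and IVM-MII oocyte 1 together, a setting added after the data were seen, and Cyp19a1 ran from −2.39 to 0.62 when each oocyte was left out. The blood, immune and endothelial median was −0.12 with every gene that had a count. The cause was not tested.

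List medians near 0 took either sign when 1 oocyte was left out: Aurora and spindle pole, BCL2, DNA methylation, ER chaperone, MOS-MAPK, PI3K, cAMP, cholesterol, cyclin B-CDK1, actin, mRNA storage, oocyte transcription factors and other maternal effect genes. The medians of translation initiation (−0.32) and elongation also depended on IVM-MII oocyte 1 (−0.01 and −0.50 without it), and those of the oocyte markers (−1.19) and growth factors (−1.35) were −1.84 and −2.72 without it. In the other direction, the oocyte markers were at −0.62 without IVM-MII oocyte 2. The growth factors were at −0.85 without IVM-MII oocyte 2, −0.76 without IVM-MII oocyte 3, −0.78 without GV oocyte 2, −0.26 within title prefixes and −0.15 with the log2 of the mean CPM.

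No paired analysis was possible because the labels give no replicate numbers that tie oocytes of the 2 groups. Within title prefixes 3643 genes were lower and 2342 higher. Depth limits absence: a gene with no count in a library could stand at up to 0.696 to 1.04 CPM there.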
